A study of Mus musculus with 6 samples.

Results

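The collagens measured here were every gene on the array whose single annotated symbol is Col, a number, the letter a and a number, from Col1a1 to Col28a1. There were 44 of them among 19938 genes with 1 symbol. Each was read from 1 probe set, the one with the highest mean over all 6 arrays, which left a choice for Col6a5 and Col6a6 with 2 probe sets each. The lowest 40% of all genes by mean intensity were left out of the tests, and 39 collagens were among the 11963 genes tested. Col4a6, Col6a4, Col9a1, Col19a1 and Col10a1 lay below that limit, an intensity of 114.

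RNA came from the epididymal white fat (eWAT) of male C57BL6/J mice, a depot of visceral fat. The mice were 6 weeks old when the high-fat diet (HFD) began and had eaten it for 12 weeks at collection. The fat of the rAAV-Lmo3 group had been transduced with a recombinant adeno-associated virus that carries Lmo3, which encodes a LIM-domain cofactor of transcription. The fat of the rAAV-YFP group had received the same kind of virus with yellow fluorescent protein, and this control is called rAAV-LacZ in the treatment protocol of the labels but rAAV-YFP in the titles. Both groups were obese, both held 3 arrays, and each array was 1 pool of 2 mice. Per the study's methods the vector is driven by a ubiquitous promoter, and the whole depot was profiled rather than sorted adipocytes. In such bulk tissue fewer cells of a type and less RNA per cell cannot be told apart.

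All 6 arrays had a similar scale, with median intensities of 123 to 126 in the rAAV-Lmo3 group and 125 to 127.5 in the rAAV-YFP group. The array rAAV-Lmo3 1 had a mean correlation of 0.986 to the other arrays and rAAV-YFP 2 one of 0.988, whereas the remaining 4 reached 0.990 to 0.991. Many of the values below are also given without either or both of these arrays. The Lmo3 probe set read 24 to 26 in rAAV-Lmo3 eWAT and 24 to 25 in rAAV-YFP eWAT, below the intensity limit, so it gave no check of the labels. All 7 adipocyte markers were tested, and their summed intensity was 49954 to 55798 in rAAV-Lmo3 eWAT and 53413 to 59828 in rAAV-YFP eWAT. The 4 markers of epididymal epithelium on the array lay below the limit in both groups.

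Collagens are secreted proteins of the extracellular matrix whose chains wind in threes into a triple helix. Fibrillar collagens are cut outside the cell and assemble into the tensile fibers of the stroma. Type IV collagen forms the sheet-like network of basement membranes, which surrounds every adipocyte and lines vessels. Type VI collagen builds beaded filaments and is abundant around adipocytes. FACIT collagens sit on the surface of fibrils, where they link them to other matrix. In obese fat, deposition of collagen is a known feature of tissue fibrosis, and fibroblasts and adipocyte progenitors are its main source.

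Promoter sequences are shown for collagens that were low together on the same arrays. Windows around the annotated start were held in RefSeq (GRCm38.p6) for 35 of the 44 collagens. The windows printed belong to the 4 members with 1 such window whose intensity was lowest jointly on rAAV-Lmo3 1 and rAAV-YFP 2, a pattern described further on. Each window holds 250 bases before the start and 30 from it, 5′ to 3′ on the strand of the gene. Capitals mark matches on either strand to any of 3 motifs known from promoters. The TATA box was searched as TATAAA. The CCAAT box was searched by the letters of its name. The GC box was searched as GGGCGG.
Col6a5, chr9:105960614-105960893, minus strand: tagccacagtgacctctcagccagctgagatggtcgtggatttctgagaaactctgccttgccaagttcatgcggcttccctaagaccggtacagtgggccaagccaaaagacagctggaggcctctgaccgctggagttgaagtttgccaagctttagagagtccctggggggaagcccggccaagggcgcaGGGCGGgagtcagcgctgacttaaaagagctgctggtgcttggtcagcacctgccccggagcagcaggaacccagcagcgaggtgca
Col8a1, chr16:57754708-57754987, minus strand: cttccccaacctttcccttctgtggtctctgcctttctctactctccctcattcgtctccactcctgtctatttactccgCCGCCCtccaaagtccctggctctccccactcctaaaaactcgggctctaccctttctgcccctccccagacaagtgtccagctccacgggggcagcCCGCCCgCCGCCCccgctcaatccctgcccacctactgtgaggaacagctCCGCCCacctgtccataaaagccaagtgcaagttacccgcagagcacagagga
Col3a1, chr1:45311288-45311567, plus strand: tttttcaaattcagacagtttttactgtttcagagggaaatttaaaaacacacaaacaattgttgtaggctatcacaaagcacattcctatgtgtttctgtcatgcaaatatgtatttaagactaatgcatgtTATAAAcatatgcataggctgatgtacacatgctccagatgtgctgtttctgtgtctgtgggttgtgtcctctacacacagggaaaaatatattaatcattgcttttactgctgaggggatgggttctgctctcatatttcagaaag
Col6a1, chr10:76726015-76726294, minus strand: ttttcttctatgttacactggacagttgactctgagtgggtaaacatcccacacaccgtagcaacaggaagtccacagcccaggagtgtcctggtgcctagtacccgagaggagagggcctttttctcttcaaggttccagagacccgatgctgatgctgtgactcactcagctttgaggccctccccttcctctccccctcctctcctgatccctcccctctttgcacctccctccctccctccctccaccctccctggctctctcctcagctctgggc
These windows shared none of the motifs across all 4 genes. The Col8a1 window held 4 GC boxes and that of Col6a5 held 1, the Col3a1 window held 1 TATA box, and the Col6a1 window held 0 of the 3 motifs. Over all collagen windows, a GC box was found in 60.5% of 38, against 34.7% of 32851 windows of all genes. A TATA box was in 13.2% of collagen windows and 13.1% of all windows, and a CCAAT box in 34.2% and 36.1%. A match of letters is a description of the window and not a binding site.

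The comparison of the groups asks whether Lmo3 delivery to eWAT went with a different level of collagen mRNA. Collagen mRNA showed no difference beyond the spread between arrays for any tested member. At an adjusted p under 0.05 the limma fit called 0 of 39 collagens, and 0% of all genes tested. At an unadjusted p under 0.05 it called 0 collagens higher (2.27% of all genes) and 0 lower (2.4% of all genes). The groups overlapped for all 39 tested collagens, whereas they did not overlap for 10.5% of all genes. The median log2 difference, rAAV-Lmo3 minus rAAV-YFP, was -0.03 over the collagens and 0.00076 over all genes. Of the 39 collagens 29 lay below 0 and 10 above, where 49.7% of all genes lay below 0. Centring each array on its median moved this split to 21 below and 18 above. It also moved all genes, with a median of -0.0082 over the collagens and 0.024 over all genes. The largest differences were small against their errors, from -0.24 ± 0.35 (SE) for Col1a1 to 0.37 ± 0.37 for Col6a5.

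**Figure D1:**
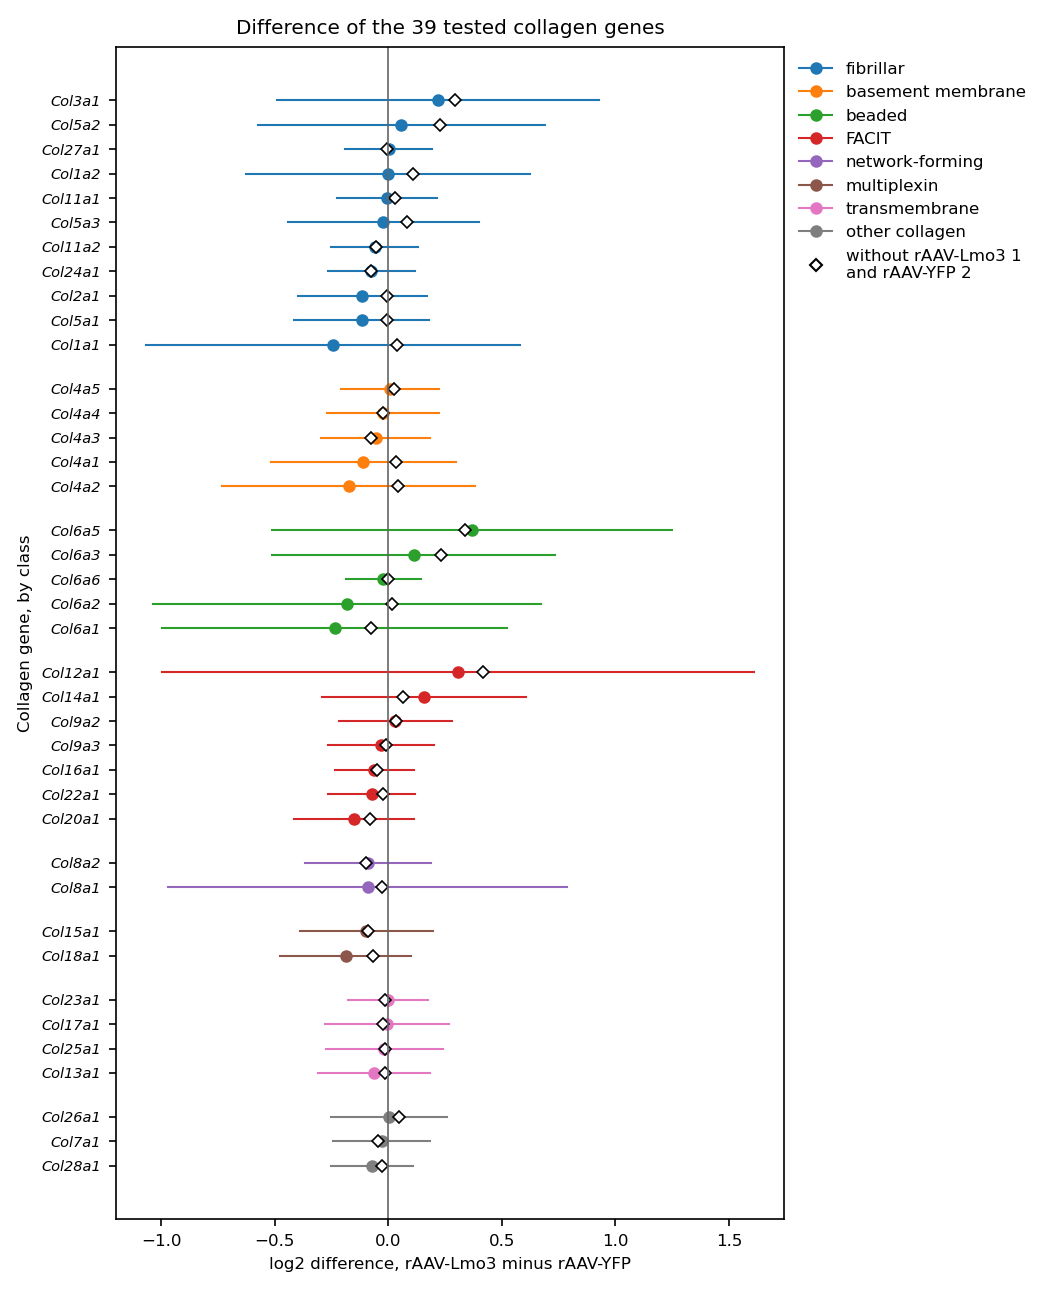
log2 difference (rAAV-Lmo3 minus rAAV-YFP, horizontal axis) of the 39 tested collagen genes, grouped and coloured by class, with 95% confidence intervals of the limma fit. Open diamonds give the difference without rAAV-Lmo3 1 and rAAV-YFP 2. Every interval crosses 0.

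Among the fibrillar collagens, 3 of 11 lay above 0 and 8 below, with a median of -0.02. Col1a1 and Col1a2 encode the chains of type I collagen, the main fibril of the stroma. Col1a1 read 951, 2387 and 2109 in rAAV-Lmo3 eWAT and 2322, 1665 and 2052 in rAAV-YFP eWAT. The rAAV-Lmo3 group held both the lowest and the highest of the 6 values, and the groups overlapped. Its log2 difference of -0.24 ± 0.35 (SE; limma, adjusted p = 0.971) turned to 0.17 once rAAV-Lmo3 1 was left out. Col1a2 read 1390, 2526 and 2435 in rAAV-Lmo3 eWAT against 2385, 1616 and 2224 in rAAV-YFP eWAT. Again 1 array in each group was low, and the difference was -0.0012 ± 0.26 (SE).

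Type III collagen, encoded by Col3a1, accompanies type I in pliable tissue. Its intensities were 1675, 3286 and 2952 in rAAV-Lmo3 eWAT and 2554, 1600 and 2531 in rAAV-YFP eWAT, with rAAV-Lmo3 1 and rAAV-YFP 2 close to each other at the bottom. The difference was 0.22 ± 0.30 (SE; limma, adjusted p = 0.971) and fell to -0.0055 without rAAV-YFP 2. Type V collagen starts fibrils and limits their width. Its chain Col5a2 showed 294, 572 and 528 in rAAV-Lmo3 eWAT against 456, 357 and 484 in rAAV-YFP eWAT, the same order of low arrays. The partner chain Col5a1 did not follow it, with 393, 534 and 426 in rAAV-Lmo3 eWAT and 465, 497 and 493 in rAAV-YFP eWAT and a difference of -0.12 ± 0.13 (SE; limma, adjusted p = 0.971). Col5a1 was lowest on rAAV-Lmo3 1 but not low on rAAV-YFP 2, and its difference was -0.024 without rAAV-Lmo3 1 and -0.24 without rAAV-Lmo3 2.

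Of the remaining fibrillar genes, Col5a3 ranged over 1.58-fold between arrays, and the others over 1.12- to 1.32-fold. Col2a1, the cartilage collagen, read 224, 252 and 213 in rAAV-Lmo3 eWAT and 247, 282 and 219 in rAAV-YFP eWAT (-0.11 ± 0.12, SE), and differed by -0.022 without rAAV-YFP 2. The highest of its 6 values was on rAAV-YFP 2, the array on which Col1a1, Col1a2 and Col3a1 were lowest of their group. Col11a2, a chain of the thin fibrils of cartilage, differed by -0.06 ± 0.080 (SE), and Col24a1 by -0.08 ± 0.080. For Col5a3, Col11a1 and Col27a1 the difference lay between -0.02 and 0.0011.

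In the basement membrane class, 1 of 5 tested members lay above 0 and 4 below, with a median of -0.06. The chains Col4a1 and Col4a2, which combine into the common type IV molecule of most basement membranes, had similar profiles. Col4a1 read 1038, 1680 and 1330 in rAAV-Lmo3 eWAT against 1422, 1369 and 1498 in rAAV-YFP eWAT. Col4a2 read 875, 1704 and 1349 in rAAV-Lmo3 eWAT against 1388, 1336 and 1557 in rAAV-YFP eWAT. For both genes rAAV-Lmo3 1 was low, rAAV-Lmo3 2 was high and the rAAV-YFP arrays lay between them. The differences were -0.11 ± 0.17 and -0.17 ± 0.23 (SE), and without rAAV-Lmo3 1 they became 0.065 and 0.091.

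Col4a3 and Col4a4, chains of the kidney type of basement membrane, differed by -0.06 ± 0.10 and -0.02 ± 0.10 (SE), and Col4a5 by 0.0064 ± 0.090. Col4a6 was too dim to be tested. It read 104, 99 and 95 in rAAV-Lmo3 eWAT against 102, 115 and 104 in rAAV-YFP eWAT, and the groups overlapped (difference -0.11, exact permutation p = 0.3, two-sided, where 0.1 is the smallest that 3 against 3 arrays allow).

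The beaded class, type VI collagen, had the widest spread between replicates among the classes with over 2 tested members. Of its 5 tested members 2 lay above 0 and 3 below, with a median of -0.02. Col6a1 read 1125, 2571 and 1872 in rAAV-Lmo3 eWAT and 1984, 1654 and 2692 in rAAV-YFP eWAT. Col6a2 read 806, 2087 and 1537 in rAAV-Lmo3 eWAT and 1568, 1207 and 2001 in rAAV-YFP eWAT. These chains ordered the arrays alike, with rAAV-Lmo3 1 lowest, rAAV-YFP 2 next and rAAV-Lmo3 2 or rAAV-YFP 3 highest. Col6a1 differed by -0.24 ± 0.32 and Col6a2 by -0.18 ± 0.36 (SE; limma, adjusted p = 0.971 and 0.984). Without rAAV-Lmo3 1 these values were 0.086 and 0.20.

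Col6a3 encodes the third chain of the classical type VI molecule, whose C-terminal end is cleaved off as endotrophin, a signalling fragment of obese fat. It read 793, 1526 and 1309 in rAAV-Lmo3 eWAT and 1184, 864 and 1226 in rAAV-YFP eWAT. Its difference was on the other side of 0 from those of its partner chains, 0.11 ± 0.26 (SE), and turned to -0.048 without rAAV-YFP 2. Col6a5, one of the alternative chains that can take the place of Col6a3, read 689, 1394 and 1257 in rAAV-Lmo3 eWAT and 1112, 511 and 987 in rAAV-YFP eWAT. It had the highest difference of all collagens (0.37 ± 0.37, SE; limma, adjusted p = 0.971), and this was 0.023 without rAAV-YFP 2 and 0.68 without rAAV-Lmo3 1. The other probe set of Col6a5 gave 569, 1228 and 1014 in rAAV-Lmo3 eWAT against 893, 567 and 958 in rAAV-YFP eWAT, a difference of 0.18. Col6a6 was flat, at 436 to 444 in rAAV-Lmo3 eWAT and 435 to 458 in rAAV-YFP eWAT.

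**Figure D2:**
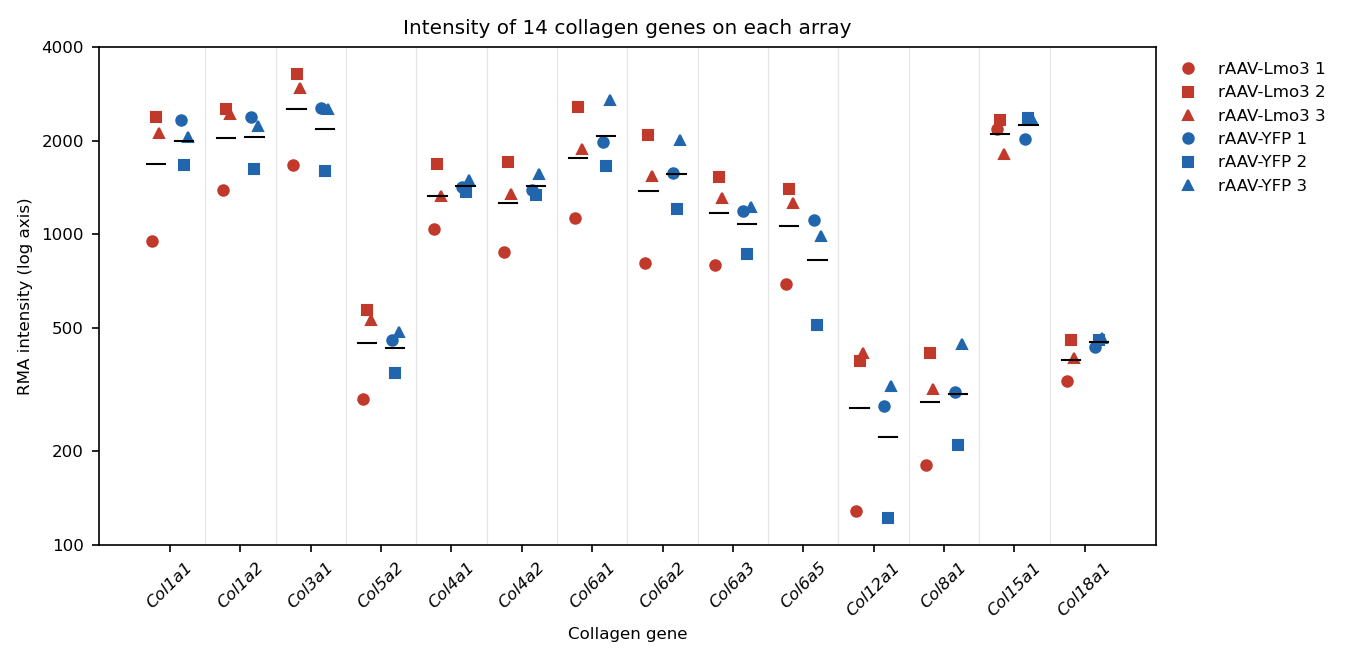
RMA intensity (vertical log axis) of 14 collagen genes on each of the 6 arrays, red for rAAV-Lmo3 and blue for rAAV-YFP, with bars at the group means of the log2 values. The circle of rAAV-Lmo3 1 and the square of rAAV-YFP 2 lie lowest in Col1a1, Col1a2, Col3a1, Col5a2, Col4a2, Col6a1, Col6a2, Col6a3, Col6a5, Col12a1 and Col8a1, but not in Col4a1, Col15a1 or Col18a1.

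Among the FACIT collagens, 3 of 7 tested members lay above 0 and 4 below, with a median of -0.03. Col12a1, which decorates type I fibrils, varied more between arrays than any other collagen, over 3.4-fold. It read 129, 391 and 415 in rAAV-Lmo3 eWAT and 280, 122 and 325 in rAAV-YFP eWAT. A single array in each group was far below the other two, and the difference was 0.30 ± 0.55 (SE; limma, adjusted p = 0.984). Without rAAV-YFP 2 it was -0.13, and without rAAV-Lmo3 1 it was 0.85.

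Col14a1, which binds fibrils much as type XII collagen does, read 498, 659 and 586 in rAAV-Lmo3 eWAT and 590, 395 and 597 in rAAV-YFP eWAT. The low array was rAAV-YFP 2, and the difference of 0.16 ± 0.19 (SE) turned to -0.040 without it. Col16a1, Col20a1 and Col22a1 differed by -0.06 ± 0.073, -0.15 ± 0.11 and -0.07 ± 0.080 (SE). Col9a2 and Col9a3, chains of the cartilage FACIT type IX, lay at 0.03 and -0.03. Their partner Col9a1 was too dim to be tested, with 108, 107 and 99 in rAAV-Lmo3 eWAT and 110, 125 and 110 in rAAV-YFP eWAT. It was the single collagen whose groups did not overlap (difference -0.13, exact permutation p = 0.1, two-sided, the smallest possible).

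Among the other classes, Col18a1, the multiplexin whose end is released as endostatin, had the smallest p of all collagens (limma, adjusted p = 0.970). It read 338, 457 and 398 in rAAV-Lmo3 eWAT and 432, 456 and 462 in rAAV-YFP eWAT, a difference of -0.19 ± 0.12 (SE), or -0.077 without rAAV-Lmo3 1. The other multiplexin, Col15a1, sits at the outer face of basement membranes. It read 2182, 2336 and 1806 in rAAV-Lmo3 eWAT against 2028, 2358 and 2353 in rAAV-YFP eWAT (-0.10 ± 0.12, SE). Neither multiplexin was low on rAAV-YFP 2.

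The network-forming Col8a1, a collagen of vessel walls, read 181, 415 and 318 in rAAV-Lmo3 eWAT against 311, 210 and 442 in rAAV-YFP eWAT, with rAAV-Lmo3 1 and rAAV-YFP 2 at the bottom. The difference was -0.09 ± 0.37 (SE). Its partner Col8a2 differed by -0.09 ± 0.12 (SE) and was not low on these arrays. The 4 transmembrane collagens, which stay anchored in the cell membrane, differed by -0.06 (Col13a1) to -0.00063 (Col23a1), and all 4 were highest of their group on both rAAV-Lmo3 1 and rAAV-YFP 2. Col7a1, the anchoring fibril of skin, Col26a1 and Col28a1 lay between -0.07 and 0.0017.

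The collagens differed among themselves in their spread between replicates. The pooled SD within groups exceeded the 90th percentile of all genes (0.330 on the log2 scale) for 11 of 39 collagens. These were Col1a1, Col1a2, Col3a1 and Col5a2, Col4a2, Col6a1, Col6a2, Col6a3 and Col6a5, Col12a1 and Col8a1, and their intensity ranged over 1.82- to 3.40-fold between arrays. For all 11 the lowest pair of the 6 arrays was rAAV-Lmo3 1 and rAAV-YFP 2. That was also so for 62.7% of the 1197 genes of all kinds with an SD above this limit. Among the other 28 collagens, whose range was 1.05- to 1.67-fold, it was so for 2, Col5a3 and Col14a1.

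Counted over all 39 collagens, these arrays were the lowest pair for 13, against 20.4% of all genes. For 16 collagens each was the lowest of its own group, against 25.8% of all genes. For 10 each was the highest of its own group, against 20.7% of all genes. Col1a2, Col3a1, Col5a2 and Col12a1 fall outside the rule for array values and were chosen after their spread was seen, as was Col9a1 for its groups that did not overlap.

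**Figure D3:**
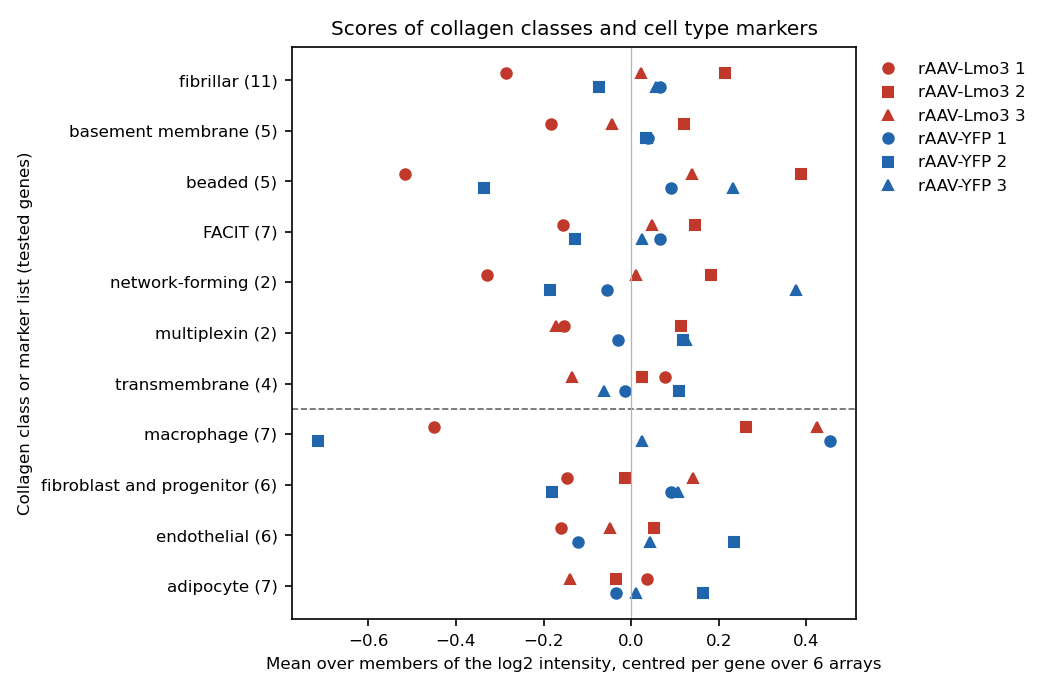
Scores of 7 collagen classes (above the dashed line) and 4 marker lists (below it) on each array, each the mean of its tested genes after every gene was centred over the arrays on the log2 scale, red for rAAV-Lmo3 and blue for rAAV-YFP. The red circle (rAAV-Lmo3 1) and the blue square (rAAV-YFP 2) lie lowest for the fibrillar, beaded, FACIT and network-forming classes. The same holds for the macrophage list and the fibroblast and progenitor list. It does not hold for the basement membrane, multiplexin, transmembrane, endothelial and adipocyte lists. Their scores were -0.52 and -0.34 for beaded, -0.45 and -0.72 for macrophage, and -0.15 and -0.18 for fibroblast and progenitor genes.

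The beaded class score, the mean of the log2 values centred per gene, was -0.52, 0.39 and 0.14 in rAAV-Lmo3 eWAT and 0.09, -0.34 and 0.23 in rAAV-YFP eWAT. The fibrillar score was -0.29, 0.21 and 0.02 in rAAV-Lmo3 eWAT and 0.06, -0.07 and 0.06 in rAAV-YFP eWAT. In both classes rAAV-Lmo3 1 was lowest and rAAV-YFP 2 next, as in the FACIT and network-forming classes. Marker lists of other cell types differed in their direction on these arrays. The macrophage score was -0.45, 0.26 and 0.42 in rAAV-Lmo3 eWAT and 0.45, -0.72 and 0.02 in rAAV-YFP eWAT, and all 7 macrophage markers were lowest on rAAV-Lmo3 1 and rAAV-YFP 2. That pair was lowest for 20.4% of all genes. An SD above the 90th percentile was seen for 6 of the 7, and 62.7% of all genes with such an SD had the same lowest pair. The summed intensity of the macrophage markers spanned 13150 to 21230 in rAAV-Lmo3 eWAT and 11417 to 22910 in rAAV-YFP eWAT. The fibroblast and progenitor score was -0.15, -0.01 and 0.14 in rAAV-Lmo3 eWAT and 0.09, -0.18 and 0.11 in rAAV-YFP eWAT, with 3 of 6 markers lowest on those arrays. Their summed intensity was 6504 to 7758 in rAAV-Lmo3 eWAT and 6012 to 7429 in rAAV-YFP eWAT. The adipocyte score was 0.04, -0.03 and -0.14 in rAAV-Lmo3 eWAT and -0.04, 0.16 and 0.01 in rAAV-YFP eWAT, with 4 of 7 markers highest of their group on both arrays. The endothelial score was -0.16 on rAAV-Lmo3 1 but 0.24 on rAAV-YFP 2, with 0 of 6 markers lowest of their group on both, and the smooth muscle and pericyte score was -0.39 and 0.11. The part of these cells in the collagen values was not tested.

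Without rAAV-Lmo3 1 and rAAV-YFP 2, on 2 arrays per group, 17 collagens lay above 0 and 22 below, with a median of -0.0068. The median over all genes was then -0.0050. Of the 11 collagens with a wide spread 9 then lay above 0, against 5 with all arrays. In all 11 the arrays left out were the lowest pair. The share of all genes above 0 in this setting is not given here, so the shift is not read as a result about collagens. The fit called 0 collagens at an adjusted p under 0.05. At an unadjusted p under 0.05 it called 4 higher, against 2.36% of all genes, and 0 lower, against 1.84% of all genes. These were Col12a1 (log2 difference 0.42, limma, adjusted p = 0.950), Col6a5 (0.34), Col3a1 (0.29) and Col5a2 (0.23), the last 3 at an adjusted p of 1. All 4 belong to the collagens with a wide spread, so these calls rest on the choice of arrays.

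Chains of 1 molecule were set against each other within each array for 5 pairs, by an exact two-sided permutation test of the log2 ratio with adjustment over the 5. The difference of Col6a3 over Col6a1 was 0.35 ± 0.14 (SE, exact permutation p = 0.2, adjusted p = 0.5), and leaving out any 1 array kept it between 0.25 and 0.44. The groups still overlapped, since the ratio centred on its mean was 0.26, 0.01 and 0.25 in rAAV-Lmo3 eWAT and 0.02, -0.17 and -0.37 in rAAV-YFP eWAT. For Col1a1 over Col1a2 it was -0.24 ± 0.15 (SE, exact permutation p = 0.2, adjusted p = 0.5), or -0.067 without both arrays. Col5a1 over Col5a2 differed by -0.17 ± 0.26, Col4a1 over Col4a2 by 0.06 ± 0.094 and Col6a1 over Col6a2 by -0.05 ± 0.072 (SE, exact permutation p of 0.5, 0.8 and 0.5). With 3 arrays per group the smallest exact permutation p is 0.1, so these tests could not pass 0.05 at any size of the ratio.

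Genes that make, bind or signal to collagen were read from 6 lists set by role, and none passed an adjusted p under 0.05. The lists were chosen with earlier results of these data known, so their shares beside all genes are a description and not a test. Groups that did not overlap were found for 1 of 9 processing and cross-linking genes, 1 of 12 fibril-associated genes and 2 of 8 receptors. TGF-beta signalling had 2 of 9, modification and folding 0 of 14 and breakdown 0 of 5, against 10.5% of all genes. At an unadjusted p under 0.05, 5 of 57 tested (8.77%) were lower in rAAV-Lmo3 eWAT and 0 were higher, against 2.4% of all genes lower and 2.27% higher. Enzymes and chaperones of collagen modification and folding had 0 of 14 past that level in either direction and a median of -0.0026. The smallest p values there were those of P4ha2, a subunit of prolyl 4-hydroxylase (-0.18 ± 0.12, SE), P3h2, a prolyl 3-hydroxylase (-0.39 ± 0.30), and Mia3, which loads collagen into secretory carriers (-0.09 ± 0.081). Propeptide processing and cross-linking genes had 0 of 9 and a median of 0.04. Adamts3, a procollagen N-proteinase, differed by -0.15 ± 0.079 (SE) with groups that did not overlap. It was read from the brightest of 16 probe sets, and the others are not given here. The lysyl oxidase-like enzyme Loxl4, read from the brighter of 2 probe sets, differed by -0.10 ± 0.099, and the proteinase enhancer Pcolce2 by 0.32 ± 0.38. P3h2 was at -0.030 without rAAV-Lmo3 1 and Pcolce2 at 0.0096 without rAAV-YFP 2. The medians of these lists changed sign with the array left out, between -0.073 and 0.068 for modification and folding and between -0.11 and 0.19 for processing and cross-linking.

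Fibril-associated proteoglycans and glycoproteins had 9 of 12 below 0 and a median of -0.21, which was -0.049 without rAAV-Lmo3 1 and -0.058 without both arrays that stood apart. Tnxb, a tenascin that spaces fibrils, read 784, 948 and 981 in rAAV-Lmo3 eWAT against 1273, 1123 and 1007 in rAAV-YFP eWAT, and the groups did not overlap (-0.33 ± 0.13, SE; limma, adjusted p = 0.970). The small proteoglycans Lum (0.54 ± 0.29) and Aspn (-0.28 ± 0.15) lay on opposite sides of 0, with Lum at 0.24 without rAAV-YFP 2 and Aspn at -0.13 without rAAV-Lmo3 1.

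Collagen receptors had 7 of 8 below 0 and a median of -0.21, which was -0.071 without rAAV-Lmo3 1, -0.076 without rAAV-YFP 1 and -0.10 without both arrays that stood apart. Itga1, the alpha subunit of a collagen-binding integrin, read 1109, 1321 and 1239 in rAAV-Lmo3 eWAT and 1369, 1623 and 1525 in rAAV-YFP eWAT (-0.30 ± 0.10, SE; limma, adjusted p = 0.970). Adgrg1, an adhesion receptor for type III collagen, read 749, 1017 and 863 in rAAV-Lmo3 eWAT and 1228, 1374 and 1051 in rAAV-YFP eWAT (-0.48 ± 0.15, SE; limma, adjusted p = 0.970). For both receptors all rAAV-Lmo3 values lay below all rAAV-YFP values, and without both arrays that stood apart the differences were -0.18 for Itga1 and -0.28 for Adgrg1. The discoidin receptor Ddr1 differed by -0.25 ± 0.14 (SE). Genes of collagen breakdown had a median of 0.18 with 4 of 5 above 0, among them the gelatinase Mmp2 (0.29 ± 0.28), the cathepsin Ctsk (0.47 ± 0.52) and the fibroblast protease Fap (0.18 ± 0.26). Without rAAV-YFP 2 that median was -0.0017, Mmp2 was at 0.026, Ctsk at 0.0014 and Fap at -0.038.

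In TGF-beta signalling, the main inducer of collagen genes in fibroblasts, the median was -0.05 with 7 of 9 below 0, and lay between -0.13 and 0.053 when any 1 array was left out. Ccn2, a matrix-associated growth factor downstream of TGF-beta, read 319, 371 and 400 in rAAV-Lmo3 eWAT and 555, 564 and 631 in rAAV-YFP eWAT (-0.69 ± 0.11, SE; limma, adjusted p = 0.885). The groups were well apart, and without rAAV-Lmo3 1 and rAAV-YFP 2 the difference was -0.62. The ligand Tgfb3 read 248, 242 and 286 in rAAV-Lmo3 eWAT against 307, 317 and 364 in rAAV-YFP eWAT (-0.35 ± 0.11, SE; limma, adjusted p = 0.970). Smad4, the shared signal transducer of the pathway, differed by -0.14 ± 0.11 (SE), or -0.021 without rAAV-Lmo3 1. None of these calls passed the adjustment over all genes tested.

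**Figure D4:**
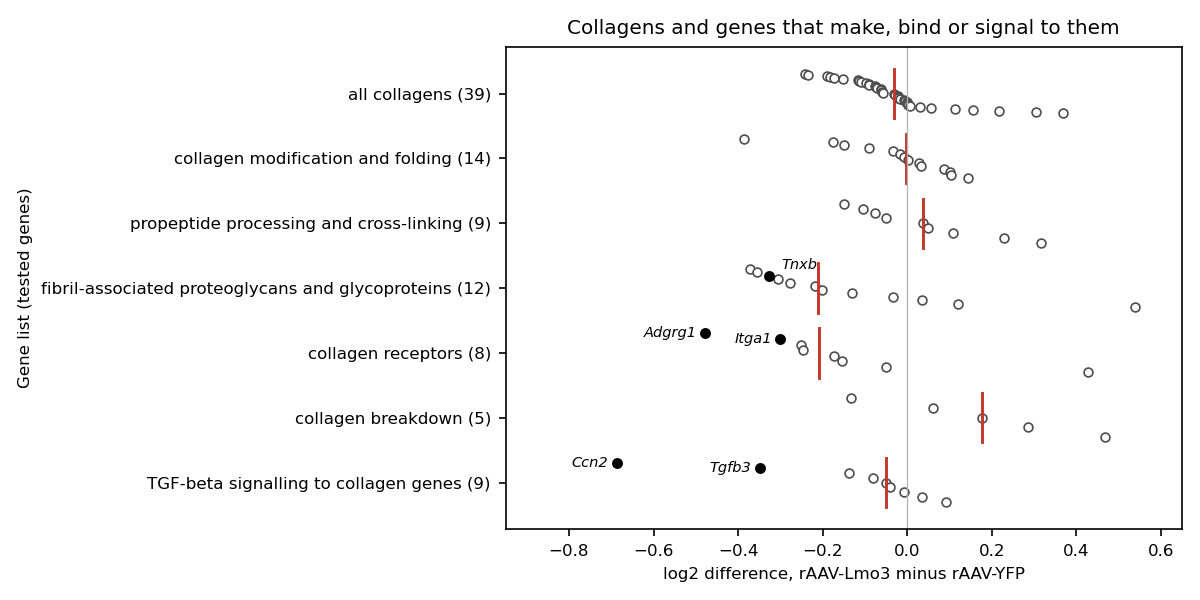
log2 difference (rAAV-Lmo3 minus rAAV-YFP, horizontal axis) of tested collagens and of tested genes in 6 lists of collagen partners, 1 point per gene, with red lines at the list medians. Filled points are the 5 genes at an unadjusted p under 0.05, all on the lower side, and no collagen is among them.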

How the data were processed

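Total RNA of 6 pools was measured on mouse Gene 1.0 ST arrays. The deposited intensity values had been summarised by the authors with RMA in Affymetrix Expression Console 1.1 and were linear and rounded to whole numbers; log2 was taken here. The array's genome build is not given in the sources used here. Rounding is coarse for dim genes. Precision is set by how many arrays there were.

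Of 35556 probe sets, 21789 carried 1 symbol, 1621 several and 12146 none. All 11963 genes tested were fitted with limma 3.58.1 in R 4.3.3 (two-sided), p-values adjusted by Benjamini-Hochberg and called below 0.05. Single values were compared by an exact permutation test. Replicates are separate pools per the labels. On simulated data for this comparison, with 11963 genes, 35.8% of the genes given a log2 change of 0.5 were recovered, and 76.1% of those given 1. The changed genes were drawn from all genes tested, whose median SD within groups was 0.136, with no deviation shared by an array. These shares do not hold for the 11 collagens with a wide spread, whose SD was 0.354 to 0.861.

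The members and lists were chosen with earlier results of these data known. Array values are given for Col6a1, Col5a1, Col1a1, Col4a6 and Col2a1, which the study names, and for up to 4 tested members per class with the smallest p. Up to 3 genes per partner list are named. Median log2 differences of marker lists were -0.08 (smooth muscle and pericyte), -0.37 (mesothelial) and -0.05 (endothelial). With any 1 array left out they lay between -0.18 and -0.014, between -0.64 and -0.077 and between -0.17 and 0.037. The mesothelial score was 0.91 on rAAV-YFP 3, against -0.37 and 0.01 on the other rAAV-YFP arrays. The Schwann cell (-0.16), T cell (-0.42) and B cell (-0.04) lists had 1 tested gene each. The adipocyte median was -0.05, the fibroblast and progenitor median -0.06 and the macrophage median 0.12.

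Alternatives were 2 scalings, array weights, a trend and robust prior, a replicate block, leaving out arrays, 2 other filters on dim genes, the mean over probe sets, and the methods' t-test.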

Additional observations from a re-analysis of the deposited data

How the results depend on the processing

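Of the collagens 0 passed an adjusted p under 0.05 with all arrays and under every alternative run. The methods' t-test also called 0, with 0 collagens at an unadjusted p under 0.05. Collagens at an unadjusted p under 0.05 numbered 0 to 2 when any 1 array was left out (Col20a1, lower, without rAAV-YFP 3, Col5a2, higher, without rAAV-Lmo3 1, and Col5a1 and Col18a1, lower, without rAAV-Lmo3 2) and 4 without both arrays that stood apart. Partner genes at that level numbered 5 of 57, where 2.27% of all genes were higher and 2.4% lower, and 3 to 6 when any 1 array was left out, with 3 without rAAV-YFP 2. The shares of all genes in the fits without 1 array are not given here. The counts of collagens and partner genes from those fits therefore cannot be set against a background. The collagen median stayed between -0.079 and -0.0068. No transmembrane or other collagen was left once the dimmest 60% of genes were removed.

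Most single collagens changed sign under some alternative, and the cause was not tested. Leaving out 1 array in turn gave ranges of -0.51 to 0.086 for Col6a1, -0.49 to 0.17 for Col1a1, -0.39 to 0.091 for Col4a2, -0.28 to 0.065 for Col4a1, -0.12 to 0.0025 for Col4a3, -0.071 to 0.065 for Col4a4, -0.49 to 0.20 for Col6a2, -0.082 to 0.39 for Col6a3, -0.040 to 0.26 for Col14a1, -0.36 to 0.24 for Col8a1, -0.17 to 0.011 for Col15a1, -0.13 to 0.019 for Col13a1, -0.10 to 0.058 for Col25a1, -0.074 to 0.089 for Col17a1, -0.027 to 0.032 for Col23a1, -0.081 to 0.027 for Col7a1, -0.088 to 0.076 for Col26a1, -0.17 to 0.28 for Col1a2, -0.0055 to 0.52 for Col3a1, -0.12 to 0.36 for Col5a2, -0.13 to 0.85 for Col12a1 and -0.038 to 0.41 for Fap. With 1 array left out in turn, 12 of 39 collagens kept their sign. Col6a5, Col5a1 and Col2a1 were among them, at 0.023 to 0.68, -0.24 to -0.024 and -0.20 to -0.022. The rest were Col6a6, Col8a2, Col11a2, Col16a1, Col18a1, Col20a1, Col22a1, Col24a1 and Col28a1, all below 0. Array weights gave 0.027 for Col1a1, 0.015 for Col4a2, 0.015 for Col4a1, 0.036 for Col6a2, 0.048 for Col8a1 and 0.14 for Col1a2. Leaving out both arrays gave 0.040 for Col1a1, 0.045 for Col4a2, 0.034 for Col4a1, 0.016 for Col6a2 and 0.11 for Col1a2. Centring on the median gave 0.00079 for Col4a4, 0.0056 for Col25a1, 0.016 for Col17a1, 0.022 for Col23a1 and 0.022 for Col1a2. A second quantile normalization gave 0.0017 for Col4a4, 0.0053 for Col25a1, 0.017 for Col17a1 and 0.0081 for Col23a1.

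The labels do not say whether the replicate numbers pair the arrays. Deviations from the group mean of same-numbered arrays correlated over genes at -0.55, -0.40 and 0.26, and those of rAAV-Lmo3 1 and rAAV-YFP 2 at 0.68. As deviations within a group of 3 sum to 0, these values cannot decide whether pools were paired. With the number as a replicate block 0 collagens and 0 partner genes passed an adjusted p under 0.05, and the collagen median stayed at -0.03.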
